A study of Rattus norvegicus with 5 samples.

Results

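The phase II conjugation enzymes of rat liver were followed across 1 normal liver and 4 rat hepatocellular carcinoma lines. Members were the 58 probes, of 33849 discovery probes on the array, whose platform gene symbol placed them in the alpha, mu, theta, kappa, omega, zeta or microsomal glutathione transferases, the UDP-glucuronosyltransferase 1 and 2 families, the sulfotransferases, or the N-acetyltransferases Nat1, Nat2 and Nat8 with its relatives. They covered 46 of the 12198 genes that had a probe of their own, and 7 probes were assigned to several genes of a family and name no single gene. Pi class glutathione transferases were not members.

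The low-metastatic class comprised the lines C5F and C6, and the high-metastatic class N1 and L2. All 4 came from tumours of male F344 rats that had received N-nitrosomorpholine and diethylnitrosamine, with an age of 31 weeks on the labels. The liver came from an untreated male SD rat of 50 weeks, so that strain, age, culture and tumour differ together between liver and lines. Total RNA was hybridised to 1 single-colour CodeLink array per sample. Each line is thus a single sample, the lines of a metastatic class serve as its replicates, the liver has none, and p-values measure the spread between lines.

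Phase II enzymes attach a polar group to drugs, hormones, bile pigments and reactive electrophiles, so that these can be excreted in bile or urine. Glutathione transferases add the tripeptide glutathione, UDP-glucuronosyltransferases add glucuronic acid from UDP-glucuronate, sulfotransferases add sulfate from PAPS, and N-acetyltransferases add an acetyl group from acetyl-CoA. The hepatocyte is the main site of all these reactions. Many glutathione transferase genes are known targets of the oxidant-responsive factor NRF2, which binds the antioxidant response element.

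Promoter sequences are shown for 4 members whose values are described further on. Those of Gstm5, Gsta1 and Nat8b hold the first motif named below, and members without it, such as Gstt3, Gstm1 and Mgst1, are not shown. They run from 250 bases before to 50 bases after the gene start, 5′ to 3′ on the strand of the gene, from RefSeq (build GRCr8), which held a promoter for 38 of the 46 genes. Capitals mark TGACNNNGC, the core letters of the antioxidant response element, on either strand in Gstm5 (chr2:198219519-198219818, plus strand), Gsta1 (chr9:31216483-31216782, minus strand) and Nat8b (chr4:119918272-119918571, minus strand). In Sult2a1 (chr1:84638898-84639197, minus strand) capitals mark TATAAA on either strand.
Gstm5: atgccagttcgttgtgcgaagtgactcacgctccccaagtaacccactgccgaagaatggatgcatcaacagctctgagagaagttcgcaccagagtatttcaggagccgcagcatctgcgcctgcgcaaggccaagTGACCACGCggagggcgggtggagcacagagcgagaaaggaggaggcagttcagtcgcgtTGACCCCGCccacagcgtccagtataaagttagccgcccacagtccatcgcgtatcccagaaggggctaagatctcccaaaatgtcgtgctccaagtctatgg
Gsta1: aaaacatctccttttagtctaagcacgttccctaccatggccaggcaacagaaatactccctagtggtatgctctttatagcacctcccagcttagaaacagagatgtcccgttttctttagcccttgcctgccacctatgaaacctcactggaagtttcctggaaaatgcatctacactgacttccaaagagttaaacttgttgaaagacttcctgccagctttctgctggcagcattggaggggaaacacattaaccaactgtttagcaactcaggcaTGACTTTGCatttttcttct
Nat8b: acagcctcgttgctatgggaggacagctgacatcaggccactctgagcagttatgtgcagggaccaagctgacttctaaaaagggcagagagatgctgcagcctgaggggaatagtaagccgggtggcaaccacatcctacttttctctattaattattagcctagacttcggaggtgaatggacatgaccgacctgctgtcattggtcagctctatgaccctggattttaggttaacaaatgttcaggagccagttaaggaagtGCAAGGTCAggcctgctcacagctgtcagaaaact
Sult2a1: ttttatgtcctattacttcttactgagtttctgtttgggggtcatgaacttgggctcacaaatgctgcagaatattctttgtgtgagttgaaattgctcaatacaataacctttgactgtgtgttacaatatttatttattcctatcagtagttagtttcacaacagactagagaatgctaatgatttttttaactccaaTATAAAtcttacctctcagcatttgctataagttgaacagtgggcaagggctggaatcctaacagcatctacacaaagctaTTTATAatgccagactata

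TGACNNNGC was present on either strand in 8 of the 38 member promoters (21.1%), those of Gsta1, Gsta2, Gsta3, Gstm5, Gstm7, Gstz1, Nat8 and Nat8b, and in 12.1% of 33469 promoters of the genome. Gstm5 held it at 2 places, starting at positions −113 and −53 from the gene start. TATAAA was present in 13 member promoters (34.2%) and in 14.2% of all promoters. Matches of different motifs did not overlap in the member promoters. A match is a run of letters, not a site shown to be bound.

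The scanner software classed each spot as above background or near background, or as irregular, contaminated or masked, in which case it was not used. Above background were 30.6% of discovery probes in liver and between 32.7% and 39.2% in the lines. Values are log2 signals after quantile normalisation between arrays, with a floor that equals 1.34 on this scale, the middle of the spots near background. Levels of different probes are not comparable, so each gene is compared only with itself across arrays. In bulk RNA, fewer cells of a type and less RNA per cell cannot be told apart.

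Conjugation enzymes were detected more often than probes at large in the liver, and at shares closer to those of all probes in the lines. This is a description without a test. Among member probes with a usable spot, 26 of 51 (51.0%) were above background in liver, where the share over all probes was 33.5%. For C5F, C6, N1 and L2 the shares were 41.5%, 38.2%, 34.0% and 40.0%, beside 43.3%, 37.7%, 36.2% and 39.0% over all probes. The families differed. Soluble glutathione transferases were above background at 11 of 15 usable probes in liver and at 9 of 14, 11 of 16, 9 of 13 and 12 of 16 in C5F, C6, N1 and L2. Sulfotransferases were above background at 4 of 16 in liver and at 1 of 19, 0 of 18, 1 of 19 and 2 of 19 in the lines. UDP-glucuronosyltransferases stood at 5 of 10 in liver, 5 of 11 in C5F and 5 of 12 in C6, but 2 of 10 in N1 and 2 of 11 in L2. A Ugt1a probe bright in liver was irregular in N1 and L2, another was irregular in N1, and Ugt1a6 was irregular in liver and C5F. The lowest linear signal called above background also differed, at 14.6 in liver and 7.87 in C5F. The shares of this family are therefore not strictly comparable between arrays. In all, 23 of the 58 probes were above background on no array, 14 of them for sulfotransferases.

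**Figure D1:**
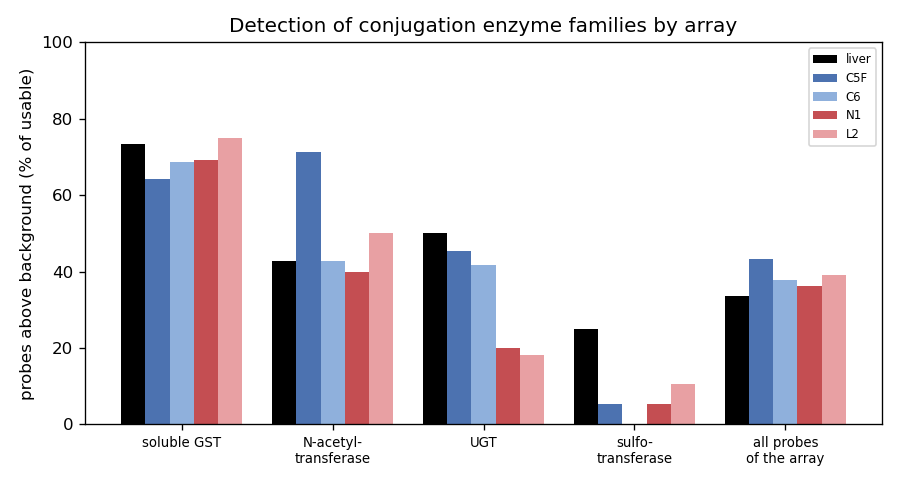
Share of usable probes called above background (%, vertical axis) for 4 enzyme families and for all discovery probes, with a bar for each of the 5 arrays. Glutathione transferases stay between 64.3% and 75% on all arrays, while sulfotransferases stand at 25.0% in liver and at most 10.5% in a line; the 3 microsomal transferase probes are left out.

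The comparison of the lines with liver asks what separates the carcinoma cells from the tissue, and the groups were set side by side in 1 limma model over all probes (two-sided, Benjamini-Hochberg adjusted, threshold 0.05). The level of the lines is the mean of the class means. Of the 58 member probes 32 passed the filter on dim probes, which asked for a signal above background either in liver or in 2 lines or more, and 27 could be tested. Sulfotransferases and UDP-glucuronosyltransferases of the 2B group made up 6 of 7 member probes that fell, and a mu class glutathione transferase was the 1 that rose. Over the whole array 9.38% of 11949 tested probes fell and 9.01% rose. At an unadjusted limma p under 0.05 stood 13 members with a lower and 1 with a higher value, beside 17.2% and 21.4% of all probes. Of the 7 that fell, 6 entered the test only through the liver, the sample in which they were bright, and the riser entered only through the lines. Their differences therefore follow in part from the filter, and the counts are a description. The count of 7 was 0 without C5F and 0 without C6, where no probe of the array passed, 4 without N1, 4 without L2, and 3 when probes had to be above background on 3 arrays or more. Of the 3 called under that last filter only Mgst1 was among the 7, and Gstt3 and Gstz1 were called in addition. Tested members had a median log2 difference of −1.31, where all tested probes had 0.15 (0.29 when arrays were scaled to their probes above background, and 0.22 at the 75th percentile).

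Of the 19 sulfotransferase probes, 14 were near background on every usable array and 4 were tested. The 3 that fell entered the test only through the liver. Sult2a1, which sulfates steroids and bile acids, had a log2 signal of 9.06 in liver and was at the floor of 1.34 in C5F, C6, N1 and L2. Its signal was at least 49.5-fold lower in the lines (limma adjusted p = 0.00627), a bound computed against the lowest signal called above background on each array. Sult1c3, of the phenol sulfotransferase group, was at 8.46 in liver and at 1.34, 1.34, 1.45 and 1.34 in C5F, C6, N1 and L2, all near background, and was at least 32.7-fold lower (limma adjusted p = 0.00629). Sult1c2, a neighbour of Sult1c3 in the genome, was at 4.45 in liver and at 1.88, 1.34, 1.34 and 1.91 in the same order, at least 2.03-fold lower (limma adjusted p = 0.0311). The Sult1c2 call ended under 6 of 13 other settings (adjusted p up to 0.0947), among them each left-out line and an offset of 50 in place of the floor, with which the difference was −0.45. In each case the liver stood alone and the lines did not differ visibly from background. Because lines at the floor show no spread, the small errors of these fits come from the floor and from the other probes of the array.

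Not every sulfotransferase signal was lost. Sult1d1, which sulfates catechols and other phenols in rodents, was above background wherever its brightest probe was usable, at 6.59 in liver, 5.87 in C5F, 6.27 in N1 and 6.12 in L2, with an irregular spot in C6. The lines lay below the liver by less than 1 log2 unit and did not overlap with it. Second probes disagreed with the first for several sulfotransferases. Both other probes of Sult1d1, the second of Sult1c2 and the second of Sult1c3 were near background on all 5 arrays, so that these genes rest on a single probe each. A probe assigned to both Sult2a1 and Sult2a2 was at the floor of 1.34 in liver and above background at 6.07 in L2. For liver and L2 this is the reverse of the probe of Sult2a1 alone. Sult1a1, Sult1b1, Sult2a2, Sult2a6, Sult2b1, Sult4a1 and Sult5a1 were near background on every array with a usable spot, and so were the probes assigned to more than 1 gene in the 1c and 1e groups.

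Among UDP-glucuronosyltransferases, 3 probes of the 2B group fell, and all 3 entered the test only through the liver. A probe assigned to several Ugt2b genes was at 7.51 in liver and at the floor of 1.34 in all 4 lines, at least 16.9-fold lower (limma adjusted p = 0.00665). Ugt2b10 was at 5.84 in liver and at 1.34, 2.41, 1.34 and 1.34 in C5F, C6, N1 and L2, at least 5.31-fold lower (limma adjusted p = 0.0247). Ugt2b35 was at 5.65 in liver and at 1.34, 1.34, 2.56 and 1.34, at least 4.65-fold lower (limma adjusted p = 0.0315). These 3 probes were near background in every line, and the liver lay clear of them all. The call of Ugt2b10 ended under 5 of 13 other settings (adjusted p up to 0.0823) and that of Ugt2b35 under 3 (up to 0.116), the removal of C5F or of C6 among them. Other 2B probes had different calls. Ugt2b1 was called near background in liver, at 3.99, and above it in C5F, at 3.29, and C6, at 3.72. Its signal was thus still highest in liver, and only the calls differed. Ugt2b was near background in liver, at 1.67, and above it in C5F, at 3.66. Ugt2b7 was near background on all arrays, as was Ugt2a1 on the 4 arrays with a usable spot.

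The Ugt1 locus encodes enzymes that share their last exons and differ in the first, and its signals persisted in the lines. Ugt1a6, which conjugates small planar phenols, was at 7.82 in C6, 8.23 in N1 and 7.69 in L2, with irregular spots in liver and C5F and hence no comparison with liver. A probe assigned to several Ugt1a genes was at 7.19 in liver, 7.43 in C5F and 6.93 in C6, so that the liver lay between these lines. Another was at 5.45 in liver and at 4.87, 4.39 and 4.39 in C5F, C6 and L2. The last, dimmer one was near background in liver, at 3.53, and in L2, at 3.70. It was above background at 3.74, 4.26 and 4.37 in C5F, C6 and N1. Ugt1a7c was near background throughout.

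Glutathione transferases mostly kept a signal in the lines, at a level under that of the liver. Mgst1, the abundant microsomal transferase of liver endoplasmic reticulum, was at 9.63 in liver and at 7.60, 7.57, 8.66 and 8.15 in C5F, C6, N1 and L2. Relative to liver it fell by 1.64 ± 0.29 log2 units (SE, 4 lines, 1 liver; limma adjusted p = 0.0451), the only member that fell and was bright on both sides. This call ended under 8 of 14 other settings, with adjusted p up to 0.133.

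Gsta1 and Gsta2, alpha class enzymes that also carry the name ligandin for their binding of bilirubin and haem, remained bright. Gsta1 was at 9.37 in liver and at 7.69, 6.66, 8.21 and 8.50 in the lines in that order, with the liver above every line (difference −1.61 ± 0.49, limma adjusted p = 0.110). Gsta2 was at 11.7 in liver, 11.4 in C5F, 9.40 in C6 and 10.5 in L2, with N1 contaminated, and Gsta3 at 6.37, 6.12, 4.55 and 4.78 on the same arrays. For both genes C5F lay close to the liver and C6 lowest.

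The omega and zeta enzymes were above background in all usable lines and lower than in liver in each. Gstz1, the maleylacetoacetate isomerase of tyrosine breakdown, was at 9.50 in liver, 6.77 in C5F, 5.64 in C6 and 6.31 in N1. Its difference of −3.24 ± 0.64 missed the threshold (limma adjusted p = 0.0837) and passed it under 3 of 11 other settings. Gsto1, a reductase of dehydroascorbate, was at 6.13 in liver, 5.19 in C6, 4.98 in N1 and 4.42 in L2. Gstk1, the kappa enzyme of mitochondria and peroxisomes, was near background in all lines and irregular in liver.

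Gstm5, a mu class enzyme, was the member that rose. Its log2 signal was 3.81, near background, in liver, and 6.68, 6.45, 7.90 and 7.34 in C5F, C6, N1 and L2. All lines were above background and lay well over the liver, at least 9.33-fold brighter (limma adjusted p = 0.0183). Gstm5 entered the test only through the lines, where it was bright, so that the call is a description. The call held under each change of scaling, floor, filter and moderation that was tried, and ended without C5F, without C6 or without N1 (adjusted p up to 0.0823).

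Gstm5 belongs to a run of 7 mu class members that follow one another in the genome, and the others behaved differently from it and from each other. Gstm1 was at 8.61 in liver and at 7.52, 7.33, 9.20 and 8.45 in the lines in the same order, with N1 above the liver. Gstm3 varied little, at 6.45 in liver, 6.26 in C5F, 6.11 in C6 and 6.56 in L2. Gstm4 was at 7.66 in liver, 6.98 in C6, 7.65 in N1 and 6.98 in L2, and at 3.73 in C5F alone. Gstm7 was at 8.82 in liver, 4.85 in C6 and 5.97 in L2, and near background at 1.81 in C5F. Thus C5F was lowest for Gstm4 and Gstm7 but not for the neighbours Gstm1 and Gstm5. Gstm2 and Gstm6l were near background on all arrays. RefSeq places 35 of the 46 genes in 9 such runs, with at most 4 other protein-coding genes between neighbours.

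The microsomal enzymes Mgst2 and Mgst3, which can make leukotriene C4, went separate ways. Mgst2 was at 8.61 in liver and at 9.31, 10.8, 9.37 and 10.1 in C5F, C6, N1 and L2, above the liver in 4 of 4 lines, a difference that missed the threshold (1.26 ± 0.70, limma adjusted p = 0.275). Mgst3 was at 7.92 in liver and 7.80 in N1 but 4.93 in L2, with irregular spots in C5F and C6.

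The N-acetyltransferases Nat1 and Nat2, which acetylate arylamines, are neighbours in the genome. Nat1 was at 5.99 in liver, 4.48 in C5F, 4.84 in C6 and 4.96 in L2, below the liver in 3 of 3 usable lines (−1.19 ± 0.30, limma adjusted p = 0.117). Nat2 was at 3.96, near background, in liver and at 3.82, 4.13, 4.49 and 4.03 in the lines, so that liver and lines overlapped. Nat8, which acetylates cysteine conjugates in the last step to mercapturates, was at 7.12 in liver, 5.63 in C5F and 5.88 in C6, with irregular spots in N1 and L2. Nat8f1 and Nat8f3 were near background on all arrays.

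**Figure D2:**
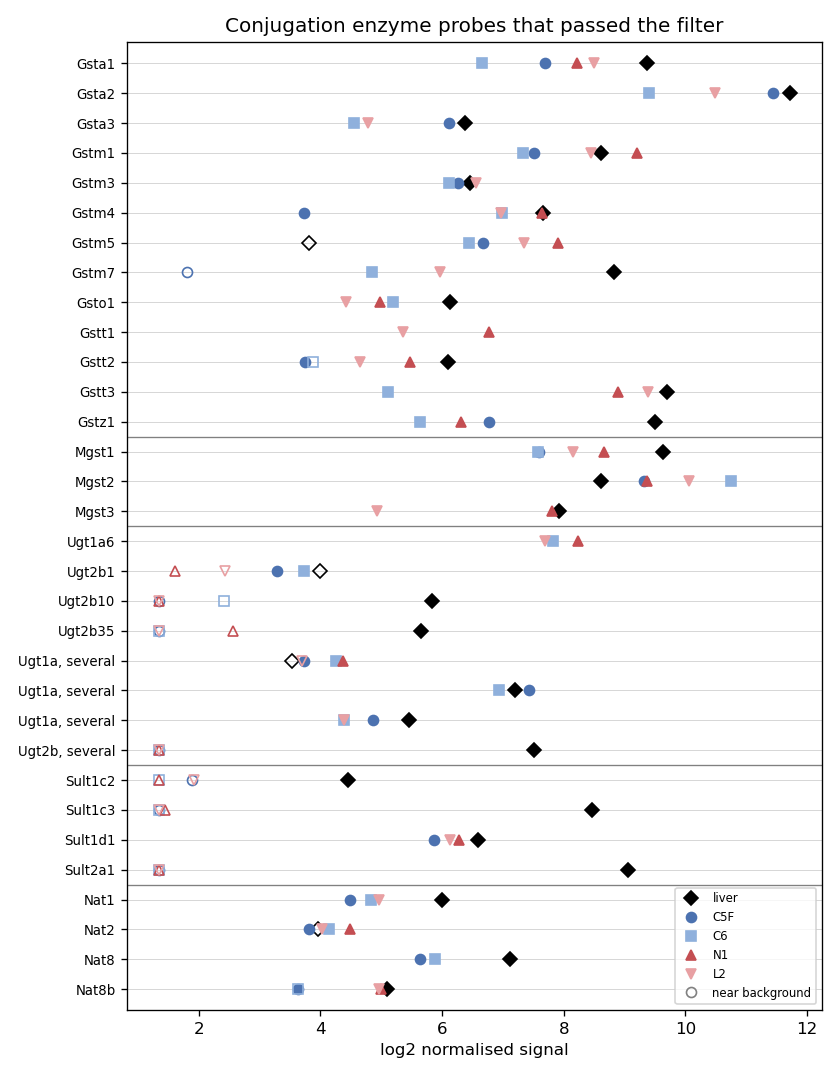
Log2 normalised signal (horizontal axis) of the 32 member probes that passed the filter, with a symbol for each array and open symbols for spots near background. Lines between rows separate glutathione transferases, microsomal transferases, UDP-glucuronosyltransferases, sulfotransferases and N-acetyltransferases; Sult2a1, Sult1c3 and the Ugt2b probe of several genes show the liver apart from 4 open symbols, and Gstm5 shows the reverse order.

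The contrast between the metastatic classes asks which transcripts accompany the ability to metastasise. The glutathione transferases Gstt3, Gstt2, Gstm1, Gstm5, Gsta1 and Mgst1 were brighter in N1 and L2 than in every usable low-metastatic line, and none of these differences passed the adjusted test. Their relatives Gsta2, Gsta3, Gstm4 and Mgst2 did not separate the classes. Gsto1 had the reverse order, with C6, its only usable low-metastatic line, at 5.19 over N1 at 4.98 and L2 at 4.42. For Gstm3, Gstm7 and Nat1, L2 was the only usable high-metastatic line and lay above C5F and C6. Of 28 members tested, 0 passed, as did 0% of 13741 probes in either direction. At an unadjusted limma p under 0.05 stood 6 members with a higher and 1 with a lower value in N1 and L2, beside 3.69% and 3.62% of all probes. The 6 became 3 when arrays were scaled to their probes above background or to the 75th percentile, 3 without C5F, 2 without C6 and 3 without N1. The first of these scalings moved the median of all probes to −0.12. Among 17 members usable in all 4 lines, 6 had both high-metastatic lines above both low-metastatic lines (35.3%) and 1 the reverse (5.88%). Over all probes these shares were 17.5% and 19.2%. The members passed a filter on dim probes and are read on the same 4 lines, so they are not independent.

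The widest separation was that of Gstt3, a theta class transferase, which stood at 8.89 in N1 and 9.38 in L2, close to the 9.70 of liver, and at 5.11 in C6. C5F had an irregular spot. The difference was 4.03 ± 0.37 (SE, n = 2 high- and 1 low-metastatic line; limma adjusted p = 0.633), and 4.19 ± 0.26 when irregular spots were kept. Against liver the difference was −2.57 ± 0.35 (limma adjusted p = 0.0519), past the threshold under 7 of 11 other settings. It weights the classes equally and so rests largely on C6, the single low-metastatic value, while the plain mean of the 3 usable lines was 7.79. Gstt2, its neighbour, followed the same order at 5.46 in N1 and 4.64 in L2 against 3.75 in C5F and 3.87, near background, in C6, with 6.09 in liver. Gstt2 differed between the classes by 1.24 ± 0.36 (limma adjusted p = 0.670) and from liver by −1.66 ± 0.40 (limma adjusted p = 0.0746). Gstt1, the third theta member, was at 6.77 in N1 and 5.36 in L2, with irregular spots on the other 3 arrays.

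The Gstm1 values given above separated the classes with 1.40 ± 0.34 (limma adjusted p = 0.670), and those of Gstm5 with 1.06 ± 0.29 at the same adjusted p. For Gsta1 the difference was 1.18 ± 0.44 (limma adjusted p = 0.687), and for Mgst1 0.82 ± 0.26 (limma adjusted p = 0.670). In all 4 genes the dimmer of N1 and L2 exceeded the brighter of C5F and C6, by between 0.52 and 0.93 log2 units. Only Gstm5 among them was also brighter than liver in every line.

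Nat8b, a relative of Nat8, was the member outside the transferases of glutathione with the clearest step. It was at 5.10 in liver, 4.99 in N1 and 4.97 in L2, and at 3.63 in C5F and 3.64, near background, in C6. The difference between the classes was 1.35 ± 0.17 (limma adjusted p = 0.602), and the high-metastatic lines lay just under the liver. Nat8b differed from liver by −0.79 ± 0.19 over all lines (limma adjusted p = 0.0746). Sult1d1 also had both high-metastatic lines over C5F, the only usable low-metastatic line, by 0.33 ± 0.26 (limma adjusted p = 0.806), and this sign turned to −0.019 when arrays were scaled to their probes above background.

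Ugt2b1 went the other way. This UDP-glucuronosyltransferase was at 3.29 in C5F and 3.72 in C6, above background, and at 1.61 in N1 and 2.43 in L2, near background, with 3.99, near background, in liver. The class difference was −1.49 ± 0.39 (limma adjusted p = 0.670) and shrank to −0.18 with an offset of 50 in place of the floor. The second Ugt1a probe described above had C5F and C6 over L2 by a margin of 0.0059 log2 units, and its difference of −0.24 turned to 0.23 with irregular spots kept.

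Of the 8 separated members that were brighter in N1 and L2, 7 had a promoter sequence, and 3 of these held TGACNNNGC. The carriers were Gstm5, Gsta1 and Nat8b, while Gstt3, Gstm1, Mgst1 and Sult1d1 lacked it and Gstt2 had no promoter sequence. Of the 6 single-gene members that fell against liver, all with a promoter sequence, 0 held the motif. The motif was held by 21.1% of member promoters and 12.1% of all promoters. A link between the motif and the order of the classes was not tested.

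**Figure D3:**
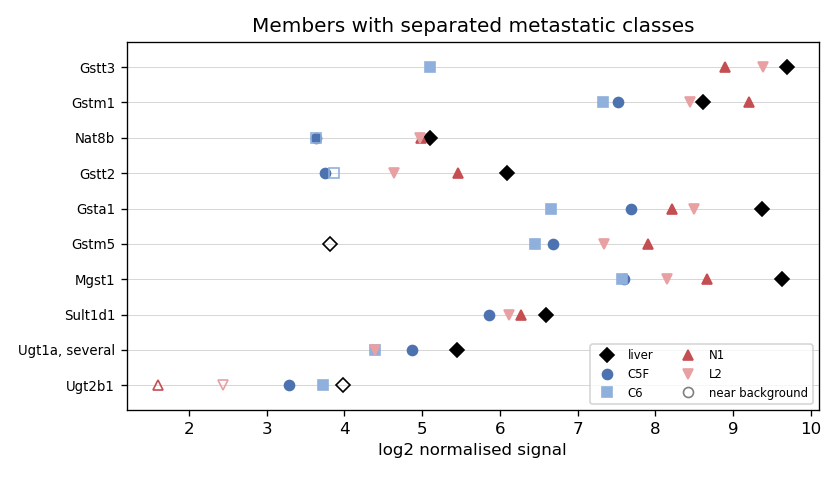
Log2 normalised signal (horizontal axis) of 10 member probes by array, with open symbols near background. In these the usable low- and high-metastatic lines did not overlap, and both lines of the brighter class were above background. Gstt3 shows the widest gap, 3.79 log2 units between C6 and N1, while Ugt2b1 and a Ugt1a probe of several genes show the reverse order.

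The genes that supply or surround conjugation were followed in lists written from textbook knowledge. Over all tested probes 9.38% fell and 9.01% rose, and the counts in lists this short are only a description beside those shares. Of 6 tested genes for the supply of UDP-glucuronate and PAPS, 1 fell and 0 rose. That gene was Papss2, a PAPS synthase of liver, at 7.96 in liver, 4.85 in C5F, 4.93 in C6 and near background at 2.67 in N1 and 3.45 in L2 (−3.98 ± 0.38, limma adjusted p = 0.0182). Its high-metastatic lines lay below the low-metastatic ones by 1.83 ± 0.34 (limma adjusted p = 0.670). The other synthase, Papss1, was at 7.38 in liver and at 7.90, 8.80, 8.64 and 9.63 in C5F, C6, N1 and L2, above the liver in all lines without passing the test (limma adjusted p = 0.197). Ugdh, which makes UDP-glucuronate, was between 9.28 and 10.8 on all arrays. Papss1 and Ugdh were chosen after their values were seen.

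A list of methyl and amino acid conjugation also took in acyl-CoA ligases and Gnmt, so not all its genes are conjugation enzymes. Of its 6 tested genes 6 fell. Gnmt, Acsm1 and Acsm3 were near background in all lines and entered the test only through the liver, so that the count is a description. Gnmt, the glycine methyltransferase, was at 10.9 in liver and near background in all lines, at least 174-fold lower (limma adjusted p = 0.00975). Acsm1, an acyl-CoA ligase that prepares acids for glycine conjugation, was at least 76.4-fold lower (limma adjusted p = 0.00683). Acsl1, a long-chain acyl-CoA ligase, fell by 4.93 ± 0.35 (limma adjusted p = 0.0253). Among 5 tested deconjugating enzymes 1 fell, Acy3, which deacetylates mercapturates, by 3.56 ± 0.40 (limma adjusted p = 0.0231). Of 3 tested genes of glutathione supply 0 passed.

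Gstp1, the pi class transferase that marks rat liver carcinogenesis and was not a member, was at 10.2 in liver, 13.3 in C5F and C6 and 13.5 in L2, with N1 contaminated, and rose by 3.17 ± 0.24 (limma adjusted p = 0.0273). Gstp3, of the same class, went from 11.2 in liver to near background in all lines, at least 218-fold lower (limma adjusted p = 0.00627). Among 7 tested regulators 2 fell, beside 9.38% of all tested probes. These were Hnf4a and Foxa1, factors that drive hepatocyte genes. Hnf4a was at 7.07 in liver and at 5.41, 5.13, 4.96 and 4.50 in C5F, C6, N1 and L2 (limma adjusted p = 0.0332). Foxa1 was at 6.05 in liver and near background in all lines, at least 6.15-fold lower (limma adjusted p = 0.0119). Foxa1 and Gstp3 entered the test only through the liver, so that both calls are a description. Nfe2l2, the gene of NRF2, was between 7.52 and 7.96 on the 4 usable arrays. Keap1, its inhibitor, was at 4.74 in liver and at 3.62, 4.62, 4.85 and 5.08 in C5F, C6, N1 and L2. Ahr was near background everywhere, as was the xenobiotic receptor gene Nr1i3 in all lines, and Nr1i2 was above background in C5F alone, at 3.55; both receptors had irregular liver spots.

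Many markers of liver cells, though not all, moved with the same contrast. Of usable hepatocyte markers 6 of 7 were above background in liver and 6 of 9 in C5F, against 1 of 9 each in C6, N1 and L2. C5F alone among the lines thus kept several. The 1 marker in C6, N1 and L2 was Apoa2, which like Apoa1 had a contaminated liver spot. Summed over the 7 markers usable on all arrays, the linear signal was 39044 in liver, 2273 in C5F and between 22.2 and 34.5 in the other lines. For 5 Kupffer cell and macrophage markers, of which Lyz2 was near background everywhere, the sum was 3378 in liver and 55.2 to 79.8 in the lines. For 3 endothelial markers it was 289 and 7.6 to 8.3, for 2 stellate cell markers 52.6 and 5.1, with Lrat near background everywhere, and for 2 blood markers 122 and 8.0 to 12.4. Of the blood markers, Ptprc was near background everywhere. Not all such markers were dimmer in the lines: Col1a1, of stellate cells and fibroblasts, was at 7.56 in liver, 7.10 in C5F and 7.49 in N1. Col1a2 was at 7.07 in C5F and 7.12 in L2, and the endothelial Pecam1 between 4.02 and 4.40 in the lines, all above background. Both had irregular liver spots. Cd3e, of blood, was at 5.64 in liver and above background at 4.48, 4.07 and 4.28 in C6, N1 and L2. Epcam, of cholangiocytes, was at 5.61 in liver, 6.21 in C5F and 3.29, near background, in L2. Krt19, of cholangiocytes, was at 11.1 in C5F, 10.4 in C6 and 9.14 in L2, with an irregular liver spot, while Sox9 and Spp1 were near background on all arrays. Alb, the gene of albumin and a defining hepatocyte marker, was at the floor in all 4 lines. The part of these cells in the falls against liver was not tested.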

How the data were processed

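The deposited files hold 2 intensity values per spot for each of the 5 arrays, quantified by the authors with CodeLink Expression Analysis 4.1.0.29054, per the file headers. The raw intensity has its background subtracted, as its negative values show, and the normalized intensity is the raw intensity divided by the array median. The deposited series matrix holds the latter (largest difference 0). The raw intensity was used here.

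Controls were dropped, and irregular, contaminated and masked spots were treated as missing. Quantile normalisation with limma 3.58.1 in R 4.3.3 came next, then a floor of 2.53 (the median signal near background) and log2. The filter on dim probes left 16377. A model of 3 groups was fitted with lmFit and eBayes (prior degrees of freedom 1.46). Probes without a residual degree of freedom were not tested, which left 11949 against liver and 13741 between classes. The single liver was taken to have the spread of the lines.

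A bound ("at least") compares the bright group's mean with, per dim array, the higher of the probe's own signal and that array's lowest signal above background. The latter was 14.6 for liver and 7.87, 11.8, 13.0 and 11.2 for C5F, C6, N1 and L2. Symbols came from the platform annotation, updated through Entrez numbers in RefSeq (GRCr8; 12177 of 12201 matched). Nat10 and Nat9 were not taken as members, since the rule names the numbers 1, 2 and 8. Member counts are of probes. For a gene with several probes the brightest stands for it. Per-array values were given, by rule, for members past the threshold against liver, members with separated classes, members above background in 3 lines or more and those above background in 1 line only. From each list the 3 genes with the widest significant difference were eligible, with named regulators and Gstp1. Further members were added to account for every one. Members and gene lists were chosen with earlier results of these data known. Simulated arrays with seeded changes were used to test the model. Alternatives changed the scaling, floor, filter, irregular spots, moderation and probe averaging, or left out a line. The number of arrays limits the precision.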

Additional observations from a re-analysis of the deposited data

Results flagged for a closer look

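Signals above background and above the level of liver were found in 3 member probes that had failed the filter, and so entered no comparison. A probe assigned to several Sult2a genes had a log2 signal of 6.07 in L2 and was near background in liver (1.34), C5F (1.34), C6 (2.55) and N1 (1.51), whereas the probe of Sult2a1 alone was bright in liver only. The probe of Ugt2b was at 3.66 in C5F and at 1.67, near background, in liver. The probe of Nat8f5 was at 3.52 in C5F and at 3.48, near background, in liver, and these values lie close together. Each of the 3 rests on a single array.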

How the results depend on the processing

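No paired analysis was made, since the sample titles name each line and give no pairing between the classes. A slide term was not fitted, as every slide carried 1 array. When probes had to be above background on at least 3 arrays, only Mgst1 of the 7 members lower than liver stayed called. The other 6 were above background in liver alone and could not enter. Gstt3 and Gstz1 were called in addition, so that the count of members lower than liver was 3. It was 0 without C5F and 0 without C6, and 4 without N1 and 4 without L2; without C5F or C6 no probe of the array passed. The count of 1 member higher was 2 with no filter on dim probes and 0 to 1 without each line, with 0 without C5F, C6 or N1. Under the other settings both counts were within 1.5 times. The class count was 0 in each direction under all 14 settings, with 2 to 7 members higher and 0 to 1 lower at an unadjusted p under 0.05. Of the single-member differences against liver, 137 kept their side of the threshold, 31 lost the call and 13 gained it; 0 changed sign. Between the classes 126 kept their side and 2 changed sign: Sult1d1 to −0.019 with scaling to probes above background, and a Ugt1a probe of several genes to 0.23 with irregular spots kept. The cause was not tested. Members near background have no order among themselves.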
